A study of Drosophila melanogaster with 12 samples.

Results

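The dpr, DIP, beat and side genes of Drosophila melanogaster encode cell-surface and secreted proteins of the immunoglobulin superfamily by which neurons recognise each other. Their members were taken as the probe sets whose annotation gave 1 gene symbol of these families, with the probe set of highest mean over all 12 arrays standing for its gene. This gave 51 of the 11982 genes that had a probe set with a single symbol, namely 13 beat, 8 side, 10 DIP and 20 dpr genes. These 51 genes had 93 probe sets between them. A probe set was tested if it was at or above the median of its own array on at least 3 of the 12 arrays, and 46 members passed (12 beat, 8 side, 8 DIP and 18 dpr genes). The 5 that did not were beat-IIb, DIP-theta, DIP-zeta, dpr10 and dpr16.

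Dpr proteins are carried on the neuronal surface and bind DIP proteins (Dpr-interacting proteins) on other neurons in selective pairs. Beat proteins bind Side proteins in another network, first known from motor axons, where beat-Ia lets axons leave a nerve bundle in response to Side on the surfaces they grow along. In the fly brain the combination of these proteins that a neuron makes differs between cell types and bears on the partners with which it forms synapses.

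The study used pools of 115 fluorescent neurons, sorted from at least 15 dissociated adult brains per pool, whose amplified RNA was hybridised to Affymetrix Drosophila Genome 2.0 arrays. There were 4 groups of 3 pools each: dopaminergic control, dopaminergic mutant, cholinergic control and cholinergic mutant. The mutants are described as parkin null. Parkin is a ubiquitin ligase that marks damaged mitochondria for removal, and dopaminergic neurons are the population lost in Parkinson's disease. All groups were sorted on GFP, and the line that drives GFP, the parkin allele, the control strain, sex and age are not given in the sources used here. Nothing in the labels ties pools to separate cohorts, so p-values measure the spread between these pools. The values are log2 intensities of 1 probe set, and levels are compared between pools and never between genes. Trios of values below are pools 1, 2 and 3 of a group, and the number only names a pool.

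The array of the pool labelled dopaminergic mutant 3 stood apart, with low levels of dopaminergic markers and of several other neuronal markers. Its level of ple, which encodes the tyrosine hydroxylase that makes dopamine, was 4.36, against 10.39 to 10.57 in the dopaminergic controls, 7.01 and 10.94 in the other dopaminergic mutant pools and 3.61 to 4.18 in the cholinergic pools. This array had 1627 probe sets at log2 8 or more and dopaminergic mutant 1 had 2182, against 2380 to 3307 on the other arrays, and both are called dim arrays below. Dopaminergic mutant 3 correlated with the other arrays at r = 0.26 to 0.53 over all probe sets. Of 4 markers of all neurons, elav measured 6.27 there, against 9.07 to 11.90 on the other arrays. For brp it was 5.31 against 10.27 to 11.64, and for nSyb 10.65 against 10.70 to 11.61. The level of para, 8.41, lay within the 7.69 to 9.93 of the other arrays. The summed level of 6 dopaminergic markers was 62.8 to 69.1 in dopaminergic controls, 32.1 to 67.2 in dopaminergic mutants and 36.2 to 47.8 in cholinergic controls. ChAT, the enzyme that makes acetylcholine, differed between the types by 0.24 ± 1.26 (SE) in controls and by -1.30 in mutants. On dopaminergic mutant 3 ChAT measured 6.28, against 9.28 to 11.72 on the other arrays. VAChT, the transporter that loads acetylcholine into vesicles, differed by -1.20 in controls and by -4.03 in mutants, where the types did not overlap. The 4 cholinergic markers summed to 34.3 to 42.7 and 37.4 to 43.1 in cholinergic controls and mutants, and to 38.3 to 41.8 and 20.5 to 40.05 in dopaminergic ones. Lower RNA per cell and fewer cells carrying an RNA cannot be told apart in such pools.

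Over all 46 members, no difference between the neuron types passed an adjusted p of 0.05 in limma, with Benjamini-Hochberg adjustment over all 12460 probe sets tested. In controls, 0 of 46 members passed, as did 0% of all probe sets, and the smallest adjusted p was 0.371. In parkin mutants, 0 of 46 passed against 0.0161% of all probe sets (smallest adjusted p 0.303). With both genotypes averaged, 0 of 46 passed against 0% (smallest adjusted p 0.128). All differences below are dopaminergic minus cholinergic in log2 units, with SE and n = 3 pools a group.

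At an unadjusted p under 0.05, 4 members differed in controls, or 4 of 46 beside 3.63% of all probe sets. All 4 measured lower in dopaminergic pools (1.67% of all probe sets lower, 1.96% higher), and they were beat-Ia, beat-Ic, DIP-gamma and dpr1. In mutants 9 members did, beside 10.5% of all probe sets. Of these, 8 measured lower (4.34% of all) and 1, dpr3, measured higher (6.16% of all). Averaged over genotypes there were 9, beside 6.61% of all probe sets. These were 8 lower (3.25% of all) and 1 higher, side-IV (3.36% of all). Without dopaminergic mutant 3, the average gave 6 lower and 0 higher members beside 5.37% of all probe sets, and the comparison within mutants gave 5 lower and 1 higher beside 6.15%. Without both dim arrays the latter gave 3 lower and 1 higher beside 5.96%, and without dopaminergic mutant 2 it gave 10 lower and 7 higher beside 28.2%. With the opening letter of the title codes as a block, the comparison within mutants gave 3 lower and 0 higher beside 5.51%. The average then gave 5 lower and 0 higher beside 5.35%. Dopaminergic mutant 3 is alone in its letter, so in the block fit it adds nothing to the group differences. The median member differed by -0.06 in controls and 0.02 in mutants, where the median probe set differed by 0.05 and 0.27. With arrays centred on their medians, the member median in mutants was -0.30 and that of all probe sets -0.04. With quantile normalisation they were 0.36 and 0.20.

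**Figure D1:**
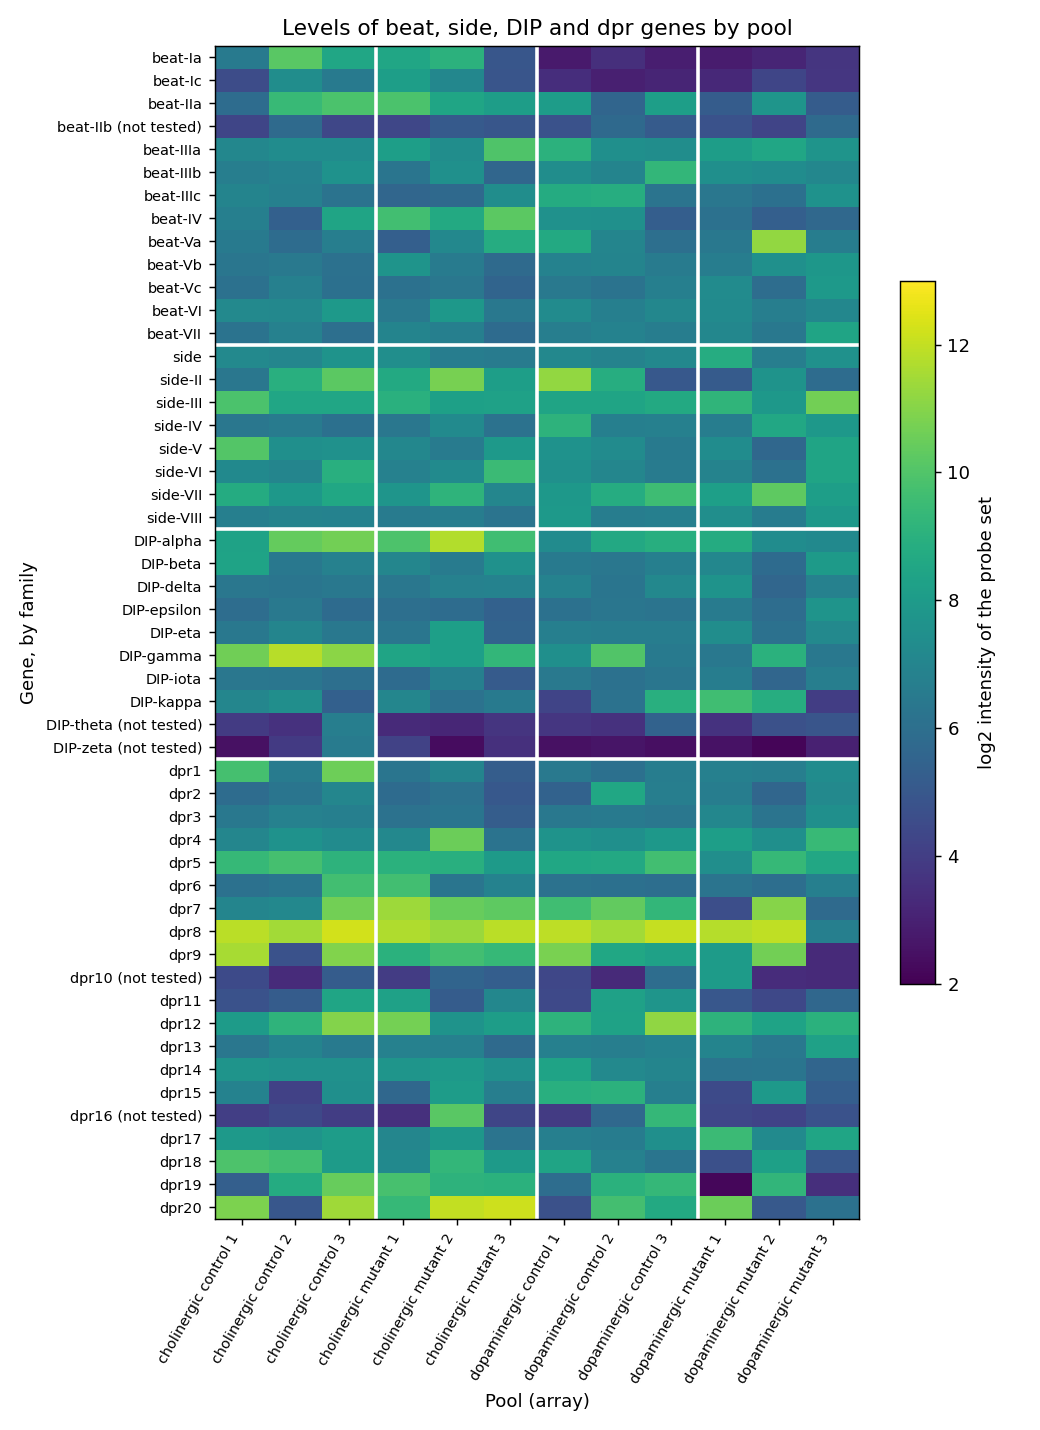
Log2 intensity of each of the 51 members (rows, by family) in each of the 12 pools (columns, by group), coloured by log2 intensity and to be read along a row only. The rows of beat-Ia and beat-Ic are lower in all dopaminergic pools than in any cholinergic pool, while several dpr rows change colour between pools of 1 group.

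Among the Beat proteins, beat-Ia gave the largest difference between the neuron types. In cholinergic controls it measured 6.51, 10.20 and 8.51, and in cholinergic mutants 8.52, 9.06 and 4.96. In dopaminergic controls it measured 2.80, 3.50 and 2.92, and in dopaminergic mutants 2.85, 3.1 and 3.70. Every dopaminergic pool lay below every cholinergic pool, and the dopaminergic values filled a range of less than 1 log2 unit while the cholinergic pools spread over more than 5. The difference was -5.33 ± 1.08 in controls (limma adjusted p = 0.371), -4.29 ± 1.08 in mutants (adjusted p = 0.372) and -4.81 ± 0.76 averaged (adjusted p = 0.128). Without dopaminergic mutant 3 the average was -4.93 (adjusted p = 0.199). Without cholinergic mutant 3, the cholinergic pool with the least beat-Ia, it was -5.45 (limma adjusted p = 0.0449), which passes the threshold. That pool's value lay nearest the dopaminergic pools, so leaving it out widens the difference and adds no support. No other run leaving out 1 array took a member past the threshold.

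The neighbouring gene beat-Ic, whose product in motor axons favours adhesion and opposes the action of beat-Ia, also measured lower in the dopaminergic pools. Its values were 4.56, 7.40 and 6.53 in cholinergic controls and 8.19, 7.10 and 4.92 in cholinergic mutants. They were 3.44, 2.97 and 3.16 in dopaminergic controls and 3.27, 4.30 and 3.76 in dopaminergic mutants. The groups did not overlap here either, although the lowest cholinergic pool (4.56) and the highest dopaminergic pool (4.30) were close. The difference was -2.98 ± 0.94 in controls, -2.96 ± 0.94 in mutants and -2.97 ± 0.67 averaged (limma adjusted p = 0.399).

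These were the members that separated all 6 dopaminergic from all 6 cholinergic pools, 2 of 46, both lower, beside 0.417% of all probe sets (0.120% lower). With no filter on low values the shares of all probe sets were 0.410% and 0.0799%. Both genes passed the filter through the cholinergic pools: beat-Ia reached its array's median in 5 cholinergic and 0 dopaminergic pools and beat-Ic in 4 and 0. Passing in this way favours a higher cholinergic level, although it does not by itself force every pool to separate. Their differences are therefore not independent of the filter. beat-Ia was known from earlier results of these data and the separation is no independent evidence. In RefSeq's Release 6 gene order both lie on chromosome arm 2L with 6 protein-coding genes between them, and beat-Ib had no probe set with a single symbol and was not analysed here. Across the 6 cholinergic pools the 2 genes varied with Pearson's r = 0.82 (exact permutation p = 0.0486, 0.0972 after Benjamini-Hochberg adjustment over 2 relations) and Spearman's rho = 0.77 (exact permutation p = 0.103, adjusted 0.206). Without the 2 pools farthest from the median of beat-Ia, r was 0.04, so the relation rests on those pools. Across the 6 dopaminergic pools r was 0.11 (exact permutation p = 0.831), and without the 2 farthest pools 0.84.

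Markers of other cells were read beside beat-Ia. VGlut, the glutamate transporter of glutamatergic neurons, measured 5.07, 9.03 and 11.65 in cholinergic controls and 4.90, 4.90 and 4.31 in dopaminergic controls, the same direction as beat-Ia. In mutants it went the other way, at 7.78, 5.58 and 6.14 in cholinergic and 8.42, 9.52 and 4.99 in dopaminergic pools. Of the GABAergic markers, Gad1 differed by -2.37 in controls and -3.28 in mutants, the direction of beat-Ia in both genotypes. VGAT did not follow, with 0.72 and -0.31. Of the glial markers, moody, of the blood-brain barrier, differed by -3.54 in controls and -4.41 in mutants and nrv2 by -1.78 and -2.58, in the direction of beat-Ia. Gs2, a glutamine synthetase, went the other way (2.78 and 0.58), and wrapper differed by -0.05 and -0.39. The 6 glial markers summed to 28.6 to 40.9 and 33.5 to 43.6 in cholinergic controls and mutants and to 24.8 to 36.1 and 27.2 to 36.9 in dopaminergic ones. The defining glial gene repo did not pass the filter and ran from 2.49 to 7.39. The glial gene alrm, also not tested, was highest in cholinergic control 1 (8.42) and cholinergic mutant 3 (7.52). These were the cholinergic pools with the least beat-Ia. The 5 Kenyon cell markers summed to 31.2 to 38.1 and 35.1 to 41.3 in cholinergic controls and mutants, and to 33.6 to 35.3 and 29.2 to 30.3 in dopaminergic ones. Among them rut, the adenylyl cyclase of olfactory memory, differed by -2.17 in controls and -5.23 in mutants. The other tested Kenyon cell genes did not share this in controls. There ey differed by 0.48, Dop1R1 by 0.96 and dnc by -0.17, and in mutants by -0.76, -3.38 and -0.04. Of the photoreceptor markers, rdgB measured 10.52, 9.93 and 8.94 in cholinergic controls and 6.82, 7.82 and 6.11 in dopaminergic controls (-2.88 ± 0.85), with -1.70 in mutants. The other tested photoreceptor genes, trp and Arr2, differed by 0.03 and -0.16 in controls. The 4 photoreceptor markers summed to 25.1 to 27.7 and 24.4 to 26.6 in cholinergic controls and mutants and to 23.8 to 25.0 and 23.4 to 29.9 in dopaminergic ones. The octopaminergic marker Tbh differed by -0.41 in controls and -1.47 in mutants. The tested hemocyte, fat body and muscle markers (NimC1, Yp1, Yp2, up and Act88F) differed by between -0.27 and 0.26 in controls. In mutants these differed by between -0.22 and 1.29. The part of other cell types in these differences was not tested.

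The titles carry array codes whose opening letter, of meaning not given, is shared by pools of both types, but the genotypes are unequal within a letter. C held 1 dopaminergic control and 1 cholinergic mutant. D held 1 dopaminergic control and 1 dopaminergic mutant beside 2 cholinergic controls. E held 1 dopaminergic control and 1 dopaminergic mutant beside 1 cholinergic control and 2 cholinergic mutants. F held 1 array, that of dopaminergic mutant 3. Dopaminergic minus cholinergic values within C, D and E, which therefore mix type with genotype, were -5.72, -5.18 and -4.49 for beat-Ia. For beat-Ic they were -4.75, -2.86 and -2.45.

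**Figure D2:**
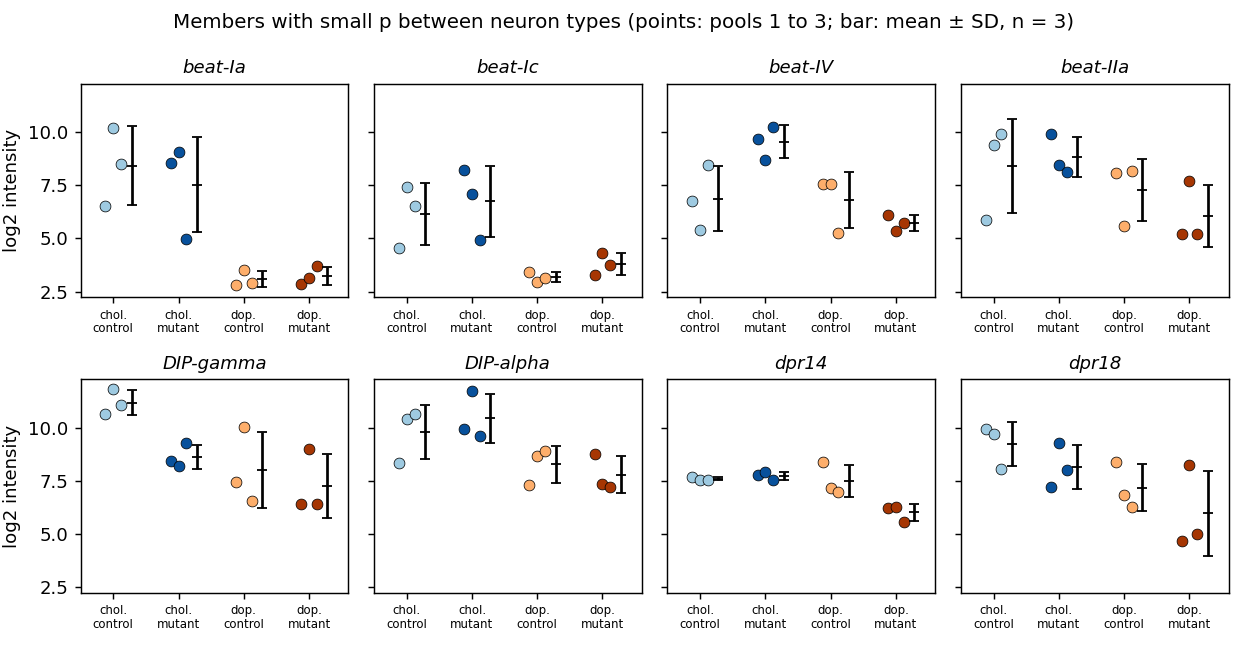
Log2 intensity by pool of leading members of the families, with 1 point per pool and the mean ± SD of the 3 pools of each group as a bar. The dopaminergic pools of beat-Ia lie between 2.80 and 3.70 and the cholinergic pools between 4.96 and 10.20, whereas for DIP-alpha and DIP-gamma the ranges of the types overlap over both genotypes.

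Other beat genes did not show this pattern in controls. beat-IV measured 6.73, 5.39 and 8.44 in cholinergic controls and 7.57, 7.54 and 5.27 in dopaminergic controls, which overlapped (-0.06 ± 0.86). In mutants it measured 9.67, 8.70 and 10.23 in cholinergic and 6.09, 5.35 and 5.72 in dopaminergic pools. There the types stood apart by -3.82 ± 0.86 (limma adjusted p = 0.303), and the change of the type difference with genotype was -3.75 ± 1.22 (adjusted p = 0.773). The cholinergic mutant pools all lay above the cholinergic controls, by 2.68 ± 0.86 (limma adjusted p = 0.835), and these 3 comparisons share the cholinergic mutant arrays. Without dopaminergic mutant 3 the difference in mutants was -3.82, and without both dim arrays -4.18. Within the title letters C, D and E, with unequal genotypes, dopaminergic minus cholinergic values of beat-IV were -2.10, 0.75 and -3.82. D held no cholinergic mutant and C no cholinergic control. In E the cholinergic control measured 8.44 and the cholinergic mutants 8.70 and 10.23.

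beat-IIa, which binds side-IV, measured 5.88, 9.40 and 9.90 in cholinergic controls and 9.89, 8.46 and 8.12 in cholinergic mutants. It measured 8.07, 5.58 and 8.16 in dopaminergic controls and 5.19, 7.72 and 5.19 in dopaminergic mutants. The control groups overlapped and the mutant groups did not, with differences of -1.1 ± 1.19 and -2.79 ± 1.19 (limma adjusted p = 0.45 in mutants).

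On their chosen probe sets, the beat-III and beat-V genes mostly measured slightly higher in dopaminergic pools. beat-IIIa differed by 0.73 and -0.41 in controls and mutants, beat-IIIb by 0.83 and 0.83, and beat-IIIc by 1.31 and 0.41. Other tested probe sets gave 0.79 and 0.49, and 2.89 and 0.35, for beat-IIIa. For beat-IIIc another gave 2.05 and -0.54. beat-Va, beat-Vb and beat-Vc, which lie within a short stretch of chromosome arm 3R and whose products bind side-VI, differed by 0.86, 0.50 and 0.15 in controls and 1.01, 0.65 and 1.06 in mutants. On the chosen probe sets, none of these 6 genes had an unadjusted p under 0.05 in any type comparison. beat-Va measured 6.55, 5.88 and 6.72 in cholinergic controls, 5.34, 7.12 and 8.80 in cholinergic mutants, 8.67, 7.01 and 6.04 in dopaminergic controls and 6.41, 11.22 and 6.66 in dopaminergic mutants, so that its highest value was that of a single pool. beat-Vb measured 6.33, 6.46 and 6.10 in cholinergic controls, 7.69, 6.57 and 5.80 in cholinergic mutants, 6.86, 6.96 and 6.58 in dopaminergic controls and 6.64, 7.54 and 7.81 in dopaminergic mutants. Its control groups stood apart by a margin of about 0.1 log2 units and its mutant groups overlapped. beat-Vc measured 6.12, 6.81 and 6.06 in cholinergic controls, 6.12, 6.35 and 5.54 in cholinergic mutants, 6.45, 6.21 and 6.77 in dopaminergic controls and 7.31, 5.94 and 7.93 in dopaminergic mutants, with overlap in both genotypes. beat-VI measured 7.19, 7.11 and 7.92 in cholinergic controls, 6.47, 7.87 and 6.41 in cholinergic mutants, 7.30, 6.77 and 7.08 in dopaminergic controls and 7.26, 6.71 and 7.08 in dopaminergic mutants. It overlapped in both genotypes, and beat-VI and beat-VII differed by -0.13 and 0.59 averaged over them. The other tested probe set of each gene had the opposite sign, at 0.78 for beat-VI and -0.40 for beat-VII.

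Of the Side proteins, the partners of Beat, side-IV was the member that measured higher in dopaminergic pools at an unadjusted p under 0.05. Its values were 6.37, 6.57 and 6.07 in cholinergic controls and 6.34, 7.27 and 6.13 in cholinergic mutants. They were 9.11, 6.76 and 6.80 in dopaminergic controls and 6.65, 8.61 and 7.88 in dopaminergic mutants. The control groups did not overlap and the mutant groups did, for an average of 1.18 ± 0.52 (limma adjusted p = 0.672). Its partner beat-IIa went the other way, as given above, and its other partner beat-IIb was not tested.

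side, the partner of beat-Ia, showed no such split. It measured 7.18, 7.05 and 7.67 in cholinergic controls, 7.44, 6.66 and 6.56 in cholinergic mutants, 7.13, 6.93 and 7.11 in dopaminergic controls and 8.82, 6.72 and 7.57 in dopaminergic mutants. The types overlapped in both genotypes, with an average difference of 0.29. side-VI, partner of the beat-V proteins, differed by -0.68 in controls and -0.71 in mutants. It measured 7.20, 7.02 and 8.95 in cholinergic controls, 6.82, 7.25 and 9.49 in cholinergic mutants, 7.54, 7.04 and 6.57 in dopaminergic controls and 6.93, 6.10 and 8.41 in dopaminergic mutants. The types overlapped in both genotypes.

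side-II, partner of beat-VI, swung widely between pools. It measured 6.38, 8.94 and 10.22 in cholinergic controls and 11.21, 8.85 and 5.02 in dopaminergic controls, a range of over 6 log2 units among pools with the same label. In mutants it measured 8.68, 10.73 and 8.16 in cholinergic and 5.16, 7.65 and 5.88 in dopaminergic pools, which did not overlap (-2.96 ± 1.52). Of its 6 probe sets 5 were tested, and in mutants they gave -2.96, 0.98, -1.08, 0.67 and 0.39. Over all members with at least 2 tested probe sets, the sign of the averaged difference was the same on every one for 10 of 19 genes. The remaining side genes differed by between -0.63 and 0.62 averaged over genotypes.

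Among the DIP proteins, DIP-alpha and DIP-gamma measured lower in dopaminergic pools in both genotypes. DIP-alpha, which pairs with dpr6 and dpr10 in optic lobe and motor neurons, measured 8.34, 10.41 and 10.64 in cholinergic controls and 9.95, 11.74 and 9.62 in cholinergic mutants. It measured 7.30, 8.66 and 8.89 in dopaminergic controls and 8.78, 7.36 and 7.20 in dopaminergic mutants. Cholinergic control 1 lay within the dopaminergic range and the other cholinergic pools were above it, for differences of -1.51 ± 0.93 and -2.66 ± 0.93 and an average of -2.08 ± 0.66 (limma adjusted p = 0.672). Within the title letters C, D and E, where the genotypes are unequal, dopaminergic minus cholinergic values were -2.65, -0.66 and -2.54.

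Of its partners, dpr6 measured 6.10, 6.25 and 9.69 in cholinergic controls and 9.68, 6.26 and 6.88 in cholinergic mutants. In dopaminergic controls dpr6 measured 6.16, 6.06 and 5.97, and in dopaminergic mutants 6.25, 5.97 and 6.75. Its 2 high values were both in cholinergic pools and the other 10 pools lay between 5.97 and 6.88. dpr10 was not tested, and its highest value was 8.02, in dopaminergic mutant 1.

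DIP-gamma, which pairs with dpr11 between photoreceptors and their targets, measured 10.63, 11.81 and 11.09 in cholinergic controls and 7.46, 10.02 and 6.54 in dopaminergic controls. These did not overlap (-3.17 ± 1.03, limma adjusted p = 1.00). In mutants it measured 8.43, 8.21 and 9.26 in cholinergic and 6.40, 9.01 and 6.40 in dopaminergic pools, which overlapped (-1.37 ± 1.03). The cholinergic mutants all lay below the cholinergic controls, by -2.54 ± 1.03 (limma adjusted p = 0.939), and the averaged type difference was -2.27 ± 0.73 (adjusted p = 0.672). Without both dim arrays the average was -1.40. dpr11 did not follow it: it measured 4.76, 5.18 and 8.45 in cholinergic controls, 8.32, 5.22 and 7.10 in cholinergic mutants, 4.41, 8.30 and 7.76 in dopaminergic controls and 5.00, 4.37 and 5.67 in dopaminergic mutants.

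The pair of DIP-delta and dpr12 is known from the mushroom body, where DIP-delta on dopaminergic neurons and dpr12 on Kenyon cells bring the partners together. DIP-delta measured 6.38, 6.29 and 6.41 in cholinergic controls and 6.88, 6.27 and 7.12 in dopaminergic controls. In mutants it measured 6.37, 6.84 and 6.86 in cholinergic and 7.67, 5.62 and 6.82 in dopaminergic pools. The types overlapped in both genotypes, with differences of 0.40 and 0.01. dpr12 measured 8.03, 9.16 and 10.96 in cholinergic controls and 9.09, 8.35 and 11.18 in dopaminergic controls. In mutants dpr12 measured 10.72, 7.63 and 8.12 in cholinergic and 9.13, 8.37 and 9.05 in dopaminergic pools. It overlapped throughout, with differences of 0.16 and 0.02, and its 3 probe sets gave average differences of 0.09, -2.49 and -0.43.

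The other tested DIP genes, DIP-beta, DIP-epsilon, DIP-eta, DIP-iota and DIP-kappa, differed by between -0.67 and 0.14 in controls and between -0.08 and 0.96 in mutants. DIP-kappa spread from 4.24 to 8.92 in dopaminergic controls and from 4.01 to 9.62 in dopaminergic mutants. DIP-theta and DIP-zeta reached the array's median on 1 array each, that of cholinergic control 3, where they measured 6.71 and 6.60.

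Among the dpr genes, which encode the partners of the DIP proteins, dpr14 measured 7.68, 7.56 and 7.56 in cholinergic controls and 7.75, 7.92 and 7.53 in cholinergic mutants. It measured 8.38, 7.17 and 7.0 in dopaminergic controls and 6.24, 6.28 and 5.58 in dopaminergic mutants. The dopaminergic mutants were the lowest 3 of the 12 pools, dopaminergic mutant 2 included. The difference between types was -0.09 ± 0.51 in controls and -1.70 ± 0.51 in mutants (limma adjusted p = 0.45), and that between dopaminergic mutants and controls -1.48 ± 0.51 (adjusted p = 0.935). Without dopaminergic mutant 3 the difference between types in mutants was -1.48.

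dpr18 measured 9.93, 9.69 and 8.05 in cholinergic controls and 7.22, 9.27 and 7.99 in cholinergic mutants. It measured 8.41, 6.82 and 6.29 in dopaminergic controls and 4.67, 8.26 and 4.98 in dopaminergic mutants. The types overlapped in both genotypes, and the differences of -2.05 ± 1.05 and -2.19 ± 1.05 averaged to -2.12 ± 0.74 (limma adjusted p = 0.672). Within the letters C, D and E, again with unequal genotypes, dopaminergic minus cholinergic values were 1.19, -4.06 and -1.16.

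dpr1, the first dpr gene described, from a defect in the avoidance of salt, measured 9.74, 6.57 and 10.58 in cholinergic controls. All other pools lay between 5.24 and 7.34: cholinergic mutants at 6.29, 6.94 and 5.24, dopaminergic controls at 6.44, 6.06 and 6.67 and dopaminergic mutants at 6.79, 6.72 and 7.34. The type difference was -2.58 ± 0.90 in controls and 0.80 ± 0.90 in mutants, and it changed with genotype by 3.37 ± 1.27 (limma adjusted p = 0.773). Cholinergic control pools 1 and 3 were the only pools above 7.34.

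dpr17 and dpr15 lie beside each other on chromosome arm 3R, with 1 protein-coding gene between them. dpr17 measured 7.93, 7.70 and 8.10 in cholinergic controls and 6.76, 6.62 and 7.48 in dopaminergic controls, which did not overlap (-0.95 ± 0.68). In mutants dpr17 measured 7.03, 7.82 and 6.24 in cholinergic and 9.50, 7.27 and 8.47 in dopaminergic pools, with the dim arrays 1 and 3 highest. dpr15 measured 6.87, 4.14 and 7.49 in cholinergic controls and 8.92, 9.09 and 6.75 in dopaminergic controls. In mutants dpr15 measured 5.67, 8.07 and 6.70 in cholinergic and 4.47, 7.89 and 5.30 in dopaminergic pools, with the dim arrays lowest. The differences of dopaminergic mutants from controls were 1.46 ± 0.68 for dpr17 and -2.37 ± 1.1 for dpr15 (limma adjusted p = 0.935 for both), and without both dim arrays they were 0.31 and -0.36.

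**Figure D3:**
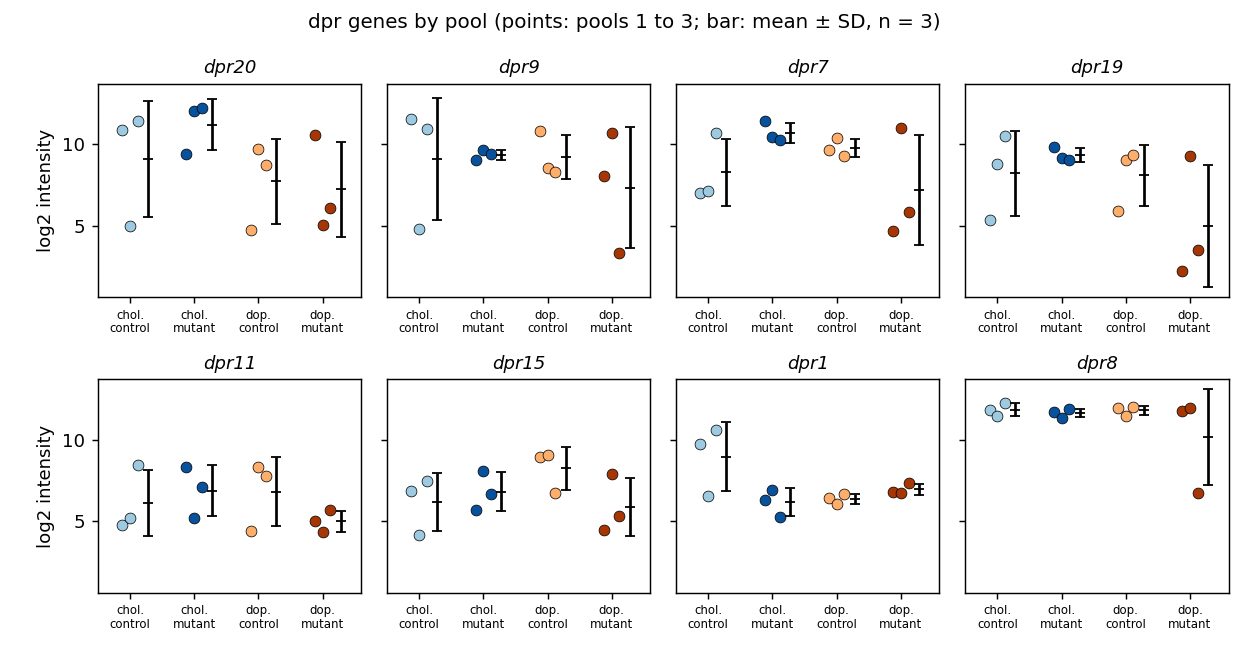
Log2 intensity by pool of 8 dpr genes, with 1 point per pool and the mean ± SD of the 3 pools of each group as a bar. Pools with the same label differ by several log2 units for dpr20, dpr9, dpr7 and dpr19, while dpr8 is between 11.34 and 12.24 in every pool but dopaminergic mutant 3, at 6.76.

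Several dpr genes were bright in some pools and near background in others of the same label. dpr20 measured 10.83, 4.97 and 11.41 in cholinergic controls and 4.74, 9.69 and 8.69 in dopaminergic controls. In mutants it measured 9.38, 12.00 and 12.18 in cholinergic and 10.55, 5.05 and 6.09 in dopaminergic pools. dpr9 measured 4.79 in cholinergic control 2 and 3.31 in dopaminergic mutant 3, and between 8.03 and 11.54 in the other 10 pools.

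dpr19 and dpr7 were low on both dim arrays and not on dopaminergic mutant 2. dpr19 measured 2.20, 9.24 and 3.49 in dopaminergic mutants and 9.82, 9.13 and 9.03 in cholinergic mutants. In controls dpr19 measured 5.35, 8.78 and 10.46 in cholinergic and 5.93, 9.02 and 9.32 in dopaminergic pools, so that pool 1 of each was also low. dpr7 measured 4.66, 10.99 and 5.81 in dopaminergic mutants and 11.40, 10.45 and 10.25 in cholinergic mutants. In controls dpr7 measured 7.0, 7.12 and 10.65 in cholinergic and 9.63, 10.34 and 9.28 in dopaminergic pools. In dopaminergic mutant 2 both genes lay within the range of the cholinergic mutants. dpr8, the brightest member by its mean over the arrays, measured 11.84, 11.48 and 12.24 in cholinergic controls, 11.71, 11.34 and 11.86 in cholinergic mutants, 11.93, 11.46 and 12.01 in dopaminergic controls and 11.77, 11.95 and 6.76 in dopaminergic mutants. It differed by -0.05 in controls and by -1.48 in mutants, where dopaminergic mutant 3 was the low pool. These values are of the chosen probe set of dpr8. Its other tested probe sets gave 0.09 and -0.60 in controls and 0.49 and -1.04 in mutants.

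A range of at least 4 log2 units within at least 1 group was found in 12 of 46 members, or 26.1%, beside 33.4% of all probe sets. By family it was 7 of 18 dpr, 3 of 12 beat, 1 of 8 side and 1 of 8 DIP genes. It occurred for 7 members in dopaminergic mutants, 5 in cholinergic controls, 3 in dopaminergic controls and 2 in cholinergic mutants.

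Of the remaining dpr genes, dpr3 measured 6.14, 6.28 and 5.26 in cholinergic mutants and 7.10, 6.22 and 7.50 in dopaminergic mutants (1.04 ± 0.43). Those groups overlapped, and the higher 2 values came from the dim arrays. dpr2, dpr4, dpr5 and dpr13 differed by 0.65, 0.37, -0.33 and 0.45 averaged over genotypes. dpr4 spread over 4.33 log2 units in cholinergic mutants, and dpr4 and dpr5 are immediate neighbours on arm 3R. dpr16, not tested, was high in 2 pools, at 10.18 in cholinergic mutant 2 and 9.35 in dopaminergic control 3, and between 3.52 and 5.73 in the others.

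Counting members whose groups did not overlap, 7 of 46 separated the types in controls, beside 8.49% of all probe sets. These were 4 lower in dopaminergic pools (beat-Ia, beat-Ic, DIP-gamma and dpr17, beside 3.53% of all) and 3 higher (beat-IIIa, beat-Vb and side-IV, beside 4.96%). In mutants 7 of 46 did, beside 13.8% of all probe sets. All 7 measured lower in dopaminergic pools (beat-Ia, beat-Ic, beat-IIa, beat-IV, DIP-alpha, dpr14 and side-II), beside 4.57% of all. beat-Ia and beat-Ic were on both lists. Without dopaminergic mutant 3 the mutant groups of 2 and 3 pools separated for 9 members lower and 1 higher, beside 18% of all probe sets, of which 6.12% were lower.

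The comparisons in controls and in mutants share no array, so the sign of each member's difference could be set side by side. It was the same in 34 of 46 members, or 73.9%, with 17 lower and 17 higher in both, beside 53.8% of all probe sets. By family the sign was the same in 10 of 12 beat, 7 of 8 DIP, 6 of 8 side and 11 of 18 dpr genes. Across the 46 genes, which are not independent replicates, the differences correlated at r = 0.39 and rho = 0.35, against r = 0.04 over all probe sets. Across the 12 beat genes r was 0.77 and across the 18 dpr genes -0.09. beat-Ia and beat-Ic passed the filter only through cholinergic pools. Leaving them out gave 32 of 44 members with the same sign and r = 0.20, and 8 of 10 beat genes and r = 0.61.

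**Figure D4:**
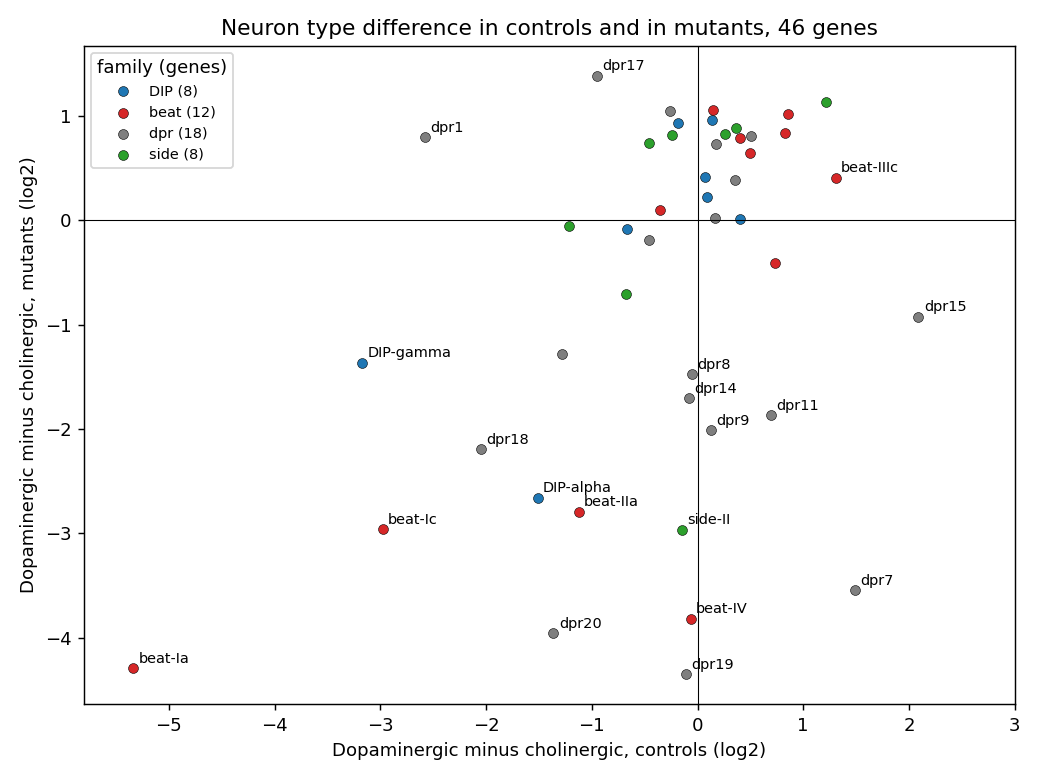
Dopaminergic minus cholinergic difference (log2) in controls on the x axis and in parkin mutants on the y axis, with 1 point for each of the 46 tested members coloured by family. beat-Ia and beat-Ic lie at the lower left in both, while dpr7, dpr15 and dpr1 have opposite signs in the 2 genotypes.

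The share was lower without some arrays. Without dopaminergic mutant 3 the sign was the same in 29 members, beside 53.7% of all probe sets. Without both dim arrays it was the same in 26 members, or 56.5%, beside 51.2% of all. Leaving out any other single array gave 28 to 34 members, the 28 without cholinergic control 3, beside 49.6% of all probe sets.

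**Figure D5:**
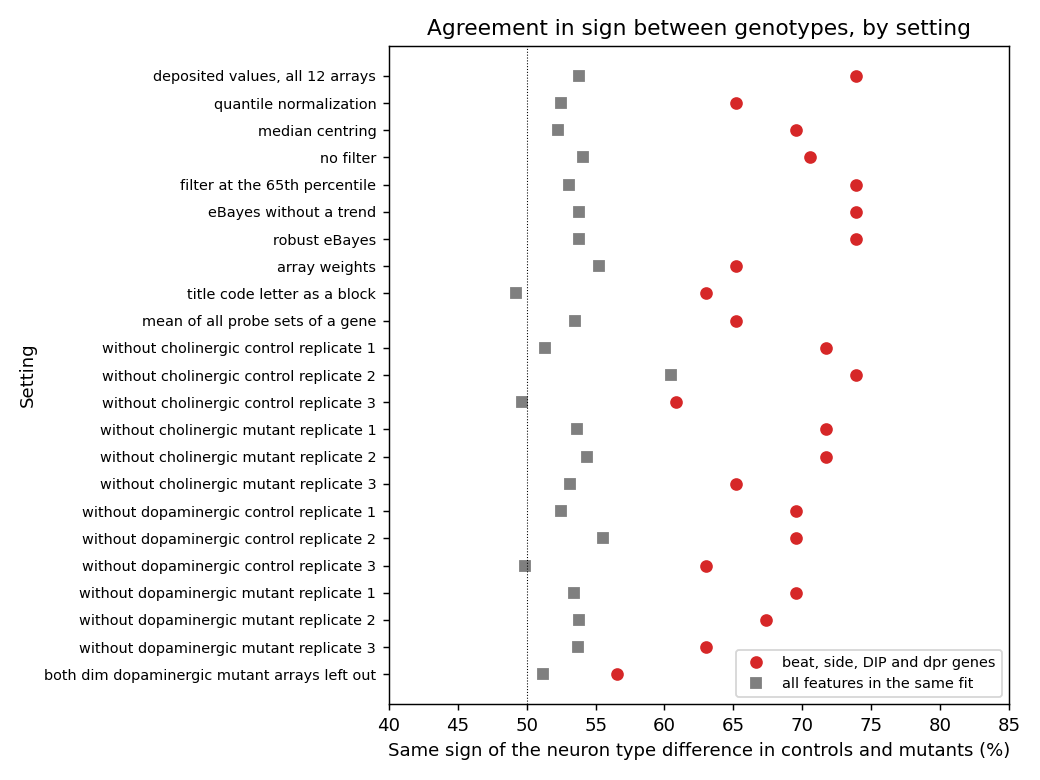
Percentage of members (n = 46, or 51 with no filter) and of all probe sets whose dopaminergic minus cholinergic difference had the same sign in controls and mutants, for each setting on the y axis; the dotted line marks 50%. Members range from 56.5% with both dim dopaminergic mutant arrays left out to 73.9% with the deposited values of all 12 arrays.

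The change of the type difference with genotype passed the adjusted threshold in 0 of 46 members and 0% of all probe sets, and 5 members had an unadjusted p under 0.05 beside 5.18%. They were beat-IV, dpr7, dpr14, dpr1 and dpr17, and with the title letter as a block there was 1 beside 4.57%. Within dopaminergic neurons, mutants differed from controls in 0 of 46 members (0% of all probe sets) at the adjusted threshold and in 1, dpr14, at an unadjusted p under 0.05 (4.49%). Here 2 of 46 members did not overlap, beside 9.0%: dpr14 lower (2.90% of all) and dpr1 higher (6.10%). Within cholinergic neurons, 0 of 46 members passed (0.0482% of all) and 3 had an unadjusted p under 0.05 (4.57%), namely dpr1, beat-IV and DIP-gamma. Here 6 of 46 did not overlap, beside 11.9%: DIP-gamma, dpr3, dpr5 and side-VIII lower (8.26% of all) and beat-IIIa and beat-IV higher (3.67%).

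Other recognition and adhesion genes of neurons were read beside the members, from a list of 64 genes of which 48 were tested. None passed the adjusted threshold in limma in a type comparison. At an unadjusted p under 0.05, 0 measured lower and 2 higher in dopaminergic than in cholinergic controls, which is 4.17% beside 3.63% of all probe sets. In mutants 7 measured lower and 1 higher (16.7% beside 10.5%), and averaged 3 lower and 2 higher (10.4% beside 6.61%). The sign was the same in controls and mutants for 26 of 48, or 54.2% beside 53.8% of all probe sets, and 0 separated all 6 dopaminergic from all 6 cholinergic pools. In controls the smallest p-values were those of CadN2, an N-cadherin (4.08 ± 1.44), Eph, the ephrin receptor (3.54 ± 1.52), and rst, of the irre cell recognition group (-2.15 ± 1.34). In mutants they were those of Fas1, fasciclin 1 (-3.82 ± 0.96), and the neuroligins Nlg2 (-3.74 ± 1.17) and Nlg3 (1.90 ± 0.68).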

How the data were processed

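Pools of sorted neurons were measured on Affymetrix Drosophila Genome 2.0 arrays (12 arrays, 3 per group). The authors deposited 1 table of normalised log2 intensities for 18952 probe sets; the normalisation method is not given in the sources used here, and the values were used as deposited. The 183 control probe sets were removed, and 12460 of the other 18769 were at or above their array's median on at least 3 arrays. GEO's platform annotation gave 13647 probe sets 1 symbol, 402 several and 4720 none, and all 51 member symbols matched RefSeq (Release 6). Of the probe sets with several symbols, 2 that named a member were left out. Group differences were fitted to all 12 arrays with limma 3.58.1 in R 4.3.3 (lmFit, eBayes with a trend, two-sided, Benjamini-Hochberg over all probe sets tested, threshold 0.05, no covariates). With 8 residual degrees of freedom, precision is limited by how many arrays there are. The code was tested on simulated data.

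Members described in full were the 5 with the smallest p in each type comparison and the 3 in each other comparison, known binding pairs with both partners tested and the 3 brightest. dpr3, dpr7, dpr9, dpr19 and dpr20 were given values after these were seen. The members and lists were chosen with earlier results of these data known. Normalisation, filter, variance model, array weights, title letters as a block, probe set choice and each array left out were varied.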

Additional observations from a re-analysis of the deposited data

How the results depend on the processing

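No paired analysis was possible because the labels give no replicate numbers; the title letter, shared by some groups, was fitted as a block instead. The member differences followed through the alternative runs were those with the smallest p, 5 in each type comparison and 3 in each other comparison. They kept their direction in every run, and 562 of 568 kept their side of the threshold while 6 passed it. Chosen for small p, they do not stand for the other members. In mutants dpr8 differed by -1.48 on its chosen probe set, with dopaminergic mutant 3 at 6.76. Dopaminergic mutants 1 and 2 measured 11.77 and 11.95, against 11.71, 11.34 and 11.86 in cholinergic mutants. The count of probe sets past the threshold moved more than the followed differences. For dopaminergic against cholinergic controls (0) it was 1 with no filter, 6 with array weights, 1 with only the arrays compared, 3 without both dim arrays and 0 to 5 leaving out 1 array. For mutants (2) it was 0 with quantile normalisation, 6 with median centring, 0 with a filter at the 65th percentile, 1 without a trend, 0 with robust eBayes, 620 with array weights, 6 at an adjusted p of 0.1, 0 with the title letter as a block, 0 with only the arrays compared, 71 without both dim arrays and 0 to 112 leaving out 1. For the average (0) it was 23 with array weights, 22 without both dim arrays and 0 to 27 leaving out 1, and for the change with genotype (0) 0 to 3 leaving out 1. For mutant against control in dopaminergic pools (0) it was 1 with no filter, 524 with array weights, 33 without both dim arrays and 0 to 74 leaving out 1. In cholinergic pools (6) it was 0 with the 65th percentile filter, 2 without a trend, 0 with the block, 3 with only the arrays compared, 1 without both dim arrays and 0 to 14 leaving out 1. Members passed only with array weights or without cholinergic mutant 3. The weights were 4.56 for dopaminergic mutant 1, 0.28 for dopaminergic mutant 2, the lowest of all, and 0.41 for dopaminergic mutant 3. The weighted dopaminergic mutant group therefore rests mostly on dopaminergic mutant 1, a dim array. There dpr7 and dpr19 measured 4.66 and 2.20, against 10.99 and 9.24 on dopaminergic mutant 2. With weights 6 passed in mutants (beat-Ia, beat-Ic, beat-IV, dpr7 and dpr19 lower and dpr17 higher in dopaminergic pools), 1 in the average (beat-Ia, limma adjusted p = 0.0206) and 3 between dopaminergic mutants and controls (dpr7, dpr17 and dpr19). Leaving out 1 array gave 0 to 1 in the average, the 1 being beat-Ia without cholinergic mutant 3. The limma adjusted p of the averaged beat-Ia difference ran from 0.0206 to 0.521. The member median between dopaminergic mutants and controls went from 0.07 to -0.34 without both dim arrays, and that of types in mutants from 0.02 to -0.11. The cause of these changes was not tested. Leaving out both dim arrays was chosen after seeing the data. Signal near background limits beat-Ia and beat-Ic in dopaminergic pools.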
